A study of Rattus norvegicus with 18 samples.

Results

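The other intergenic 5-hydroxymethylcytosine peaks are the regions that the deposited peak list places outside genes, promoters and gene deserts. Rows of that class were kept where they lay on chromosomes 1 to 20 and spanned under 3000 bases, which gave 100980 of the 215951 listed peaks. Of 103414 rows of the class, 1828 were not on those chromosomes and 606 were wider. The rule used position and width and no read count.

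Hydroxymethylcytosine arises when TET enzymes oxidise the methyl group of methylated cytosine. The TET enzymes need reduced iron, and vitamin C (ascorbate) helps to keep it reduced, so the vitamin raises hydroxymethylation in many cultured cells. Outside genes the mark is known from enhancers and other distal elements, where it can be an intermediate on the way to unmethylated cytosine. Schwann cells, the glia that ensheath and myelinate axons of peripheral nerves, depend on vitamin C in culture to lay down a basal lamina and to myelinate.

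The study compared primary rat Schwann cells taken at passage 3 after culture with vitamin C, against cells of the same passage that were not given it. Each group had 3 samples, and from each came RNA depleted of ribosomal RNA, DNA precipitated with an hMeDIP kit for 5-hydroxymethylcytosine, and unprecipitated input DNA. The dose, the duration, the strain and the number of animals are not stated in the labels, nor is it stated that samples came from separate cultures. The p-values therefore rest on the spread among these libraries alone, and that spread may be technical.

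In RNA, all 8 Schwann cell markers examined, among them Sox10 and Erbb3, stood at 90.1 CPM or more, in counts scaled to library size, in every library. Of the other cell types, Ptprc and Kdr, defining markers of leukocytes and endothelium, were at most 0.108 and 0.125 CPM, and Dcn of fibroblasts was at 0. Tek of endothelium lay between 2.99 and 4.18 CPM with vitamin C, against 1.25 to 1.77 CPM in controls, Pdgfra of fibroblasts between 0.614 and 1.24 CPM, against 2.14 to 2.501 CPM, and Cd68 of macrophages between 1.195 and 1.55 CPM, against 1.17 to 1.37 CPM. Col1a1, also listed as a fibroblast marker, was high and lay between 9188 and 10830 CPM with vitamin C, against 4397 to 4542 CPM in controls. Among markers of pericytes and muscle, Des lay between 36.8 and 40.2 CPM with vitamin C, against 11.3 to 13.9 CPM in controls. The others were lower: Myh11 lay between 4.59 and 5.62 CPM against 3.93 to 4.33 CPM. Acta2 and Rgs5 were at most 0.398 and 0.0417 CPM. The part of such cells in the hMeDIP results was not tested.

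hMeDIP libraries held 84388035 to 97792960 counted reads with vitamin C, of which 40.8% to 43.9% fell in listed peaks, against 77868883 to 92722840 reads in controls, of which 30.8% to 35.7% fell in peaks. Input libraries held 83233328 to 111336681 reads with 8.43% to 8.65% in peaks. Counts of hMeDIP replicates 1 and 3 differed by less than the sampling noise within each group (chi-square over its degrees of freedom 0.896 with vitamin C and 0.963 in controls), while pairs with replicate 2 differed by more. Replicates 1 and 3 of a group were therefore summed and counted as 1 library, so that n = 2 per group in hMeDIP fits, and values are still printed for all 3 libraries. In input, all pairs within a group stayed within the sampling noise (0.978 to 0.9885), and the 3 libraries were kept apart. The n = 3 given for input is thus no sign of better replication.

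Other intergenic peaks were short and mostly far from genes. Their median width was 605 bases (10th to 90th percentile 369 to 1334). The nearest transcript start in the list lay at a median of 52285 bases (10th to 90th percentile 9265 to 266101). Only transcripts that the list names beside some peak could be used, 19448 transcripts of 17003 genes, so true distances can be shorter. The nearest start belonged to a protein coding gene for 66.3% of the peaks and to a lincRNA for 20.2%, and 60.2% of the peaks lay upstream of it. In all, 11279 genes were nearest to at least 1 such peak.

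The precipitated DNA was enriched at these peaks in both groups. The median level was 2.07 with vitamin C, in CPM of all counted reads per kilobase, and 1.90 in controls, and the median enrichment over input was 4.27-fold with vitamin C and 3.76-fold in controls. As a whole the class took a larger share of the precipitated reads after vitamin C: 17.3%, 18.2% and 17.1% of all counted reads in the vitamin C libraries, against 14.3%, 14.0% and 16.0% in the control libraries. All vitamin C libraries lay above all controls. The passes of the list, described further on, went opposite ways: peaks of the first took 4.66%, 4.79% and 4.63% with vitamin C, against 5.68%, 5.78% and 6.16% in controls, and peaks of the second 12.6%, 13.4% and 12.4% with vitamin C, against 8.58%, 8.19% and 9.83% in controls. The share of the class sums both passes, so it depends on how many peaks of each the list holds. It is given as a description of the listed peaks. Of the reads in listed peaks, the class held 41.7%, 41.5% and 41.8% with vitamin C, against 44.98%, 45.3% and 44.8% in controls, so that its part of the reads in peaks was lower with vitamin C in every library. The share averaged 17.7% ± 0.759 with vitamin C and 14.6% ± 0.833 in controls (SD, n = 2 each). The exact permutation test, two-sided, gave p = 0.333, the smallest that 2 against 2 libraries allow, and p = 0.1 with all 3 libraries apart, the smallest for 3 against 3. In input the share was 3.72% ± 0.0378 with vitamin C and 3.72% ± 0.0348 in controls (SD, n = 3 each; exact permutation test, p = 0.8). In all, 24 such library values were compared per assay, and the lowest adjusted p of the hMeDIP family was 0.364 by exact permutation, or 0.12 with all 3 libraries apart.

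**Figure D1:**
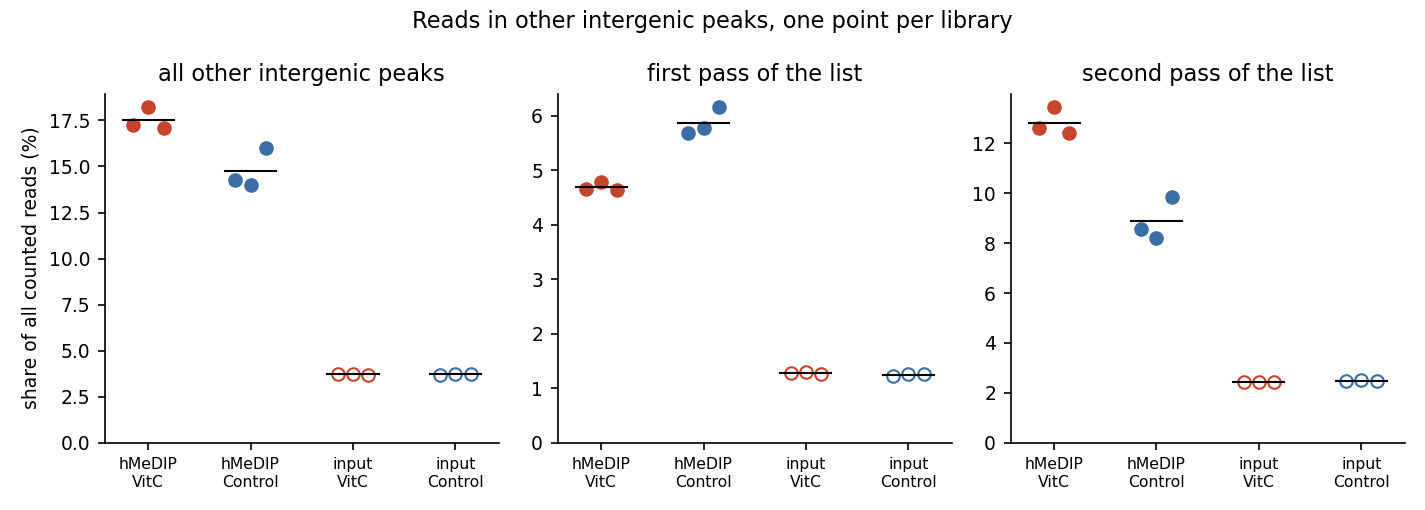
Share of all counted reads (%) that fell in other intergenic peaks, with 1 point per library and a line at the mean of the 3 libraries, for all peaks and for those of the first and the second pass of the list. Filled points are hMeDIP and open points input. Over all peaks the vitamin C libraries (17.1% to 18.2%) lie above the controls (14.0% to 16.0%), while input does not separate.

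Single peaks moved in both directions. Relative to the other peaks, with TMM factors that centre the libraries on the bulk of peaks, 30239 of the 100980 peaks rose with vitamin C (29.9%, against 36.9% of all listed peaks) and 43416 fell (43.0%, against 36.3% of all listed peaks), by edgeR's quasi-likelihood test at an adjusted p of 0.05. DESeq2's Wald test called 14882 higher and 38606 lower. The median log2 change was -0.08, against 0.05 over all listed peaks. Scaled by all counted reads, inside and outside peaks, 53698 rose (53.2%, against 60.1% of all peaks) and 29795 fell (29.5%, against 23.6%), with a median of 0.36, against 0.49 over all peaks. Between the scalings every log2 change shifted by about 0.42, so the sign of the median depends on the scaling. All 30239 peaks that rose with TMM factors also rose by counted reads, and the 29795 that fell by counted reads had all fallen with TMM factors. These are the peaks called in 1 direction by both of these scalings. For 77504 peaks (76.8%) the 3 libraries of the 2 groups did not overlap. That share was not computed over all listed peaks, so it is not read as a trait of this class.

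Input DNA did not follow. edgeR called 0 peaks higher and 0 lower in input among 100863 testable other intergenic peaks (0% of all peaks in either direction), and 4917 (4.87%) had an unadjusted p under 0.05. Tested against input in one fit with TMM factors, the enrichment of 15768 other intergenic peaks rose (15.6%, against 20.8% of all listed peaks) and that of 34616 fell (34.3%, against 28.3%), by edgeR at an adjusted p of 0.05. By counted reads the enrichment of 39576 rose (39.2%, against 46.3% of all listed peaks) and that of 19929 fell (19.7%, against 15.7%).

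The direction followed the order of the deposited list. Outside chromosome 1, whose rows lie among those of other chromosomes, the list runs through the chromosomes and then starts again at row 68433. That boundary was found without the rows of chromosome 1, which took the pass of their place in the list. The sources used here do not say how the list was put together. Of the other intergenic peaks, 38296 stood in the first pass (37.9%) and 62684 in the second. With TMM factors 34171 first-pass peaks fell (89.2%) and 810 rose (2.12%), with a median log2 change of -1.02. Of second-pass peaks 29429 rose (46.9%) and 9245 fell (14.7%), with a median of 0.24. By counted reads the medians were -0.60 and 0.67, with 74.0% of the first pass lower and 80.4% of the second higher. The split was not particular to this class. In the other classes, on the same chromosomes and under 3000 bases, 78.4% (proximal promoter) to 96.4% (gene desert) of first-pass peaks fell. Of their second-pass peaks, 43.3% (gene desert) to 57.6% (proximal promoter) rose, both with TMM factors.

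The passes also differed in the group in which enrichment was high. First-pass peaks had a median enrichment over input of 3.11-fold with vitamin C and 4.46-fold in controls, and 34454 of them reached 2-fold with vitamin C, against 38295 of 38296 in controls. Second-pass peaks had a median of 4.80-fold with vitamin C and 3.09-fold in controls, and 62681 of 62684 reached 2-fold with vitamin C, against 54174 in controls. The lowest enrichment among first-pass peaks was 0.237-fold with vitamin C and 1.71-fold in controls, and among second-pass peaks 1.83-fold with vitamin C and 0.697-fold in controls. Place in the list and level in 1 group thus cannot be told apart, and the direction within a pass is given as a description only. The same holds for the share of reads in the class as a whole, which sums both passes. The shares by distance, width, class and RNA that follow are therefore given within a named pass as well, while counts around single genes cover both passes unless one is named.

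**Figure D2:**
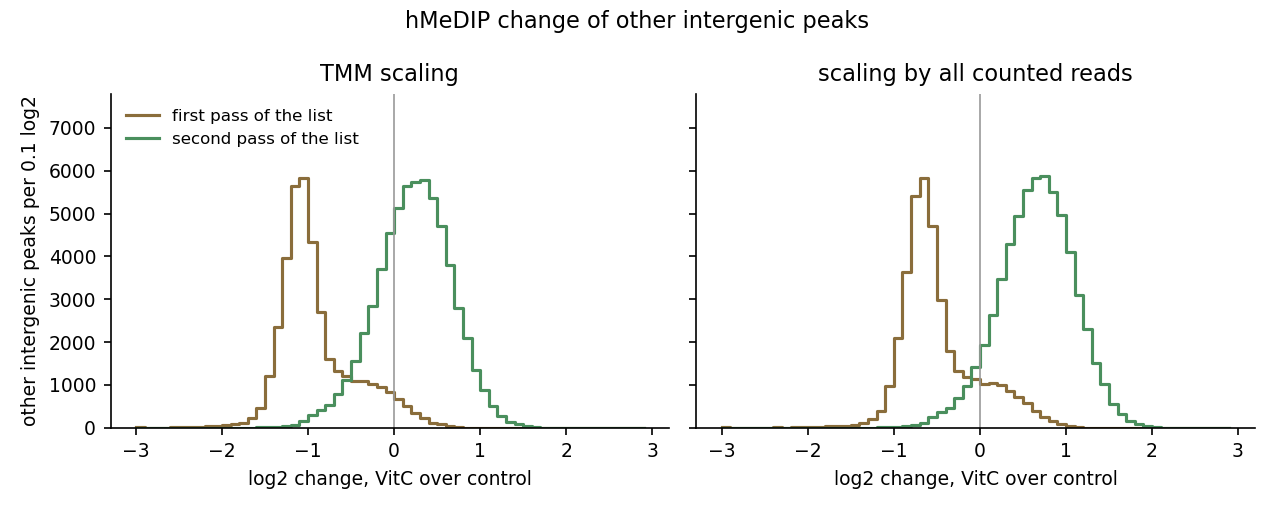
Number of other intergenic peaks per 0.1 of log2 hMeDIP change, vitamin C over control, with TMM scaling (left) and scaling by all counted reads (right), for the first pass (brown) and the second pass (green) of the list. Values beyond -3 and 3 are drawn in the end bins. First-pass peaks centre on -1.02 and second-pass peaks on 0.24 with TMM factors, and on -0.60 and 0.67 by counted reads.

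Peaks of the passes lay among each other on the chromosomes, and no listed peak on the autosomes overlapped another. Of first-pass peaks, 7384 had a second-pass other intergenic peak within 2 kb. Their median log2 change was -0.81 with TMM factors, and that of the near neighbour was 0.26. Peaks far from the other pass were mainly of the first pass, of which 19.2% lay 100 kb or more from an other intergenic peak of the other pass. Of the second pass 2.94% did. Those first-pass peaks were not isolated, as the nearest such peak of their own pass lay at a median of 21.7 kb. On each of the 20 autosomes the picture was alike: 86.5% to 92.4% of first-pass peaks fell and 44.3% to 50.3% of second-pass peaks rose. Other intergenic peaks on X, outside the rule, had 10.2% higher and 76.9% lower of 1737 over both passes. On the autosomes these shares over both passes were 29.9% and 43.0%.

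Calls of neighbouring second-pass peaks were set side by side, as a description with no test. Where the nearest other intergenic peak of the second pass was within 2 kb and had risen, 51.9% of 10763 peaks rose and 13.2% fell. Where that neighbour had fallen, 49.9% of 2790 peaks rose and 13.05% fell. At 2 to 10 kb the shares that rose were 49.2% beside a peak that had risen and 43.4% beside one that had fallen. Peaks without any second-pass neighbour within 50 kb had shares of 36.6% to 41.2% that rose, over the 3 states of the next one beyond.

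The share of peaks that fell was larger far from any listed start than near one, and so was the share that stood in the first pass. Over both passes, 37.2% of peaks under 10 kb from a start fell, 37.8% at 10 to 30 kb, 39.8% at 30 to 100 kb, 47.6% at 100 to 300 kb and 65.5% at 300 kb or more. The share of peaks that stood in the first pass was 31.5% under 10 kb and 62.7% at 300 kb or more. Within the first pass 86.4% under 10 kb and 96.2% at 300 kb or more fell. The far ones were narrower, with a median width of 408 bases against 546 bases. Of first-pass peaks under 500 bases wide, 96.3% under 10 kb and 99.0% at 300 kb or more fell. At 500 to under 1000 bases these shares were 84.3% and 91.7%, and at 1000 to under 2000 bases 64.3% and 73.0%. Of wider peaks only 4 lay at 300 kb or more, of which 1 fell, against 55% under 10 kb. Within the second pass the share that rose stayed between 45.1% and 47.8% in all 5 distance ranges, and the share that fell between 13.9% and 14.96%.

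Summed reads give a comparison that needs no scaling factor. The ratio of reads in peaks at least 100 kb from a start to reads in peaks under 10 kb was 2.20, 2.17 and 2.23 in the vitamin C libraries and 2.49, 2.53 and 2.46 in controls, with no overlap. It averaged 2.19 ± 0.0351 with vitamin C and 2.50 ± 0.0416 in controls (SD, n = 2 each; exact permutation test, p = 0.333, and p = 0.1 with 3 libraries apart). Input gave 2.45 ± 0.0154 with vitamin C and 2.43 ± 0.0159 in controls (SD, n = 3 each; exact permutation test, p = 0.2). Within the first pass the hMeDIP ratio was 3.05 ± 0.0821 with vitamin C and 3.55 ± 0.0737 in controls (SD, n = 2 each), again without overlap. Within the second pass it was 1.93 ± 0.0155 with vitamin C and 1.94 ± 0.0069 in controls (SD, n = 2 each), and libraries overlapped. Ratios within a pass were among the 24 library values compared by exact permutation, but they are read as a description only.

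**Figure D3:**
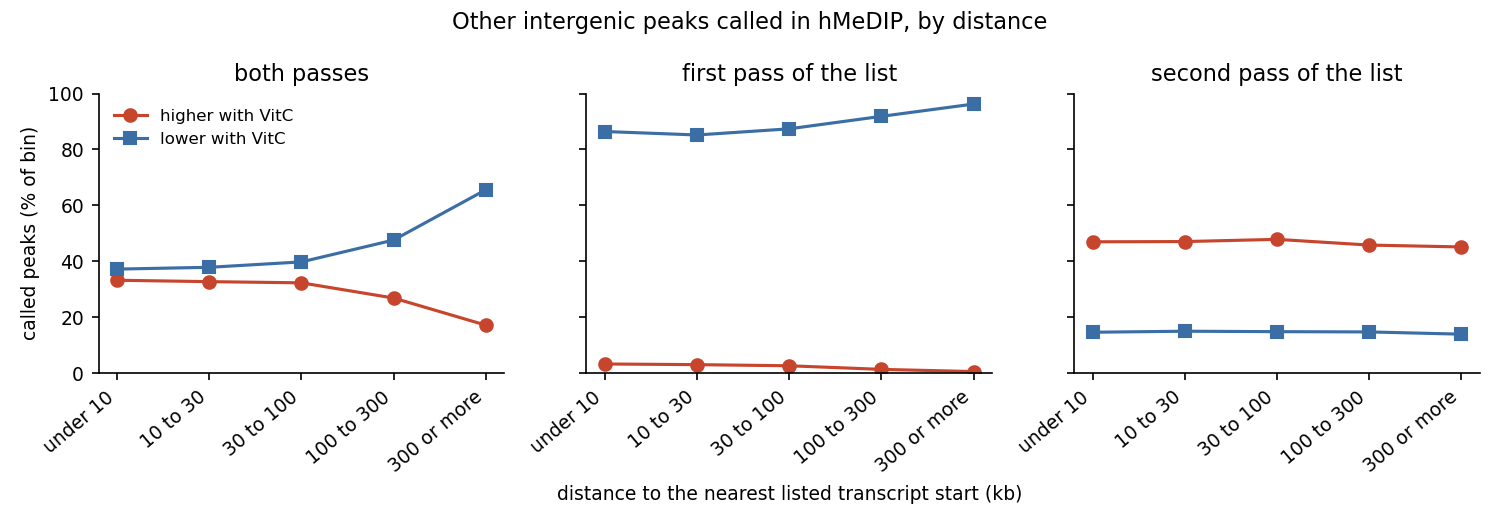
Share of other intergenic peaks (% of each distance range) called higher (red circles) or lower (blue squares) with vitamin C in hMeDIP by edgeR with TMM factors, by distance to the nearest listed transcript start in kb. Over both passes the lower share runs from 37.2% to 65.5%, and within the second pass the higher share stays between 45.1% and 47.8%.

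Width went with direction too. First-pass peaks were the narrower ones, with a median of 492 bases against 690 bases in the second pass. In the first pass, 97.5% of 19641 peaks under 500 bases fell, 85.8% of those of 500 to under 1000 bases, 62.8% of those of 1000 to under 2000 bases and 48.7% of 392 peaks of 2000 to under 3000 bases. The 810 first-pass peaks that rose had a median width of 1109 bases, against 467 bases for the 34171 that fell. In the second pass the share that fell was 5.43% under 500 bases, 14.8% at 500 to under 1000, 23.8% at 1000 to under 2000 and 23.6% at 2000 to under 3000 bases, and the share that rose lay between 41.9% and 50.8%. By counted reads the lower shares of the first pass were 89.96%, 66.7%, 24.7% and 5.87% over the same widths, with 35.9% higher at 1000 to under 2000 and 53.8% higher at 2000 to under 3000 bases, so that among first-pass peaks of 1000 bases or more, more rose than fell by this scaling. In the second pass they were 1.04%, 2.88%, 2.81% and 0.884%. The limit of 3000 bases made little difference: the 97 peaks of 2900 to under 3000 bases had a median log2 change of 0.14, and the 79 peaks of 3000 to under 3100 bases just outside had 0.18.

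**Figure D4:**
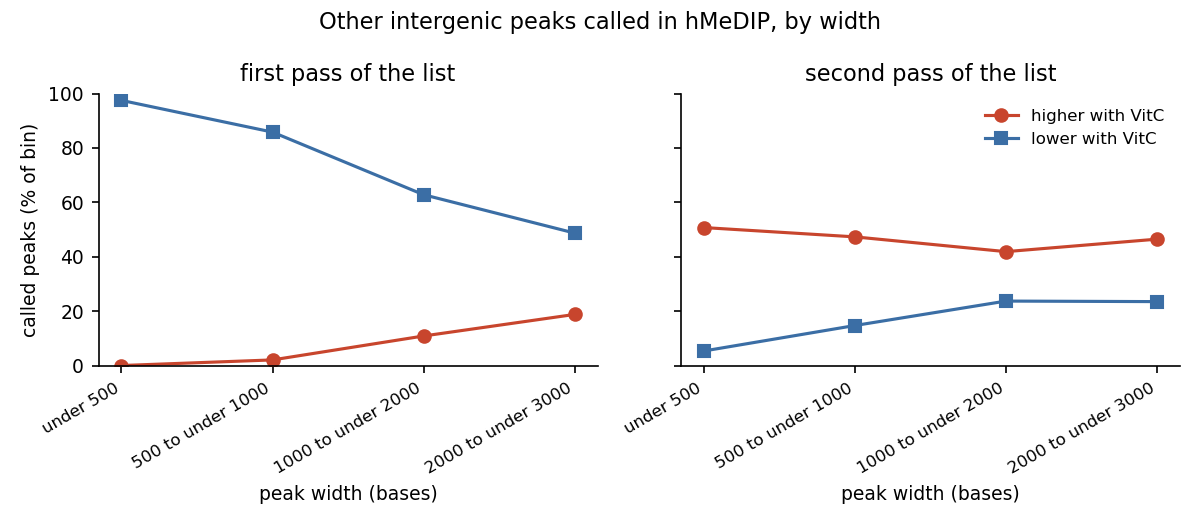
Share of other intergenic peaks (% of each width range, in bases) called higher (red circles) or lower (blue squares) with vitamin C in hMeDIP by edgeR with TMM factors, in the first and the second pass of the list. The lower share of the first pass is 97.5% for peaks under 500 bases and 48.7% for those of 2000 bases or more.

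Gene body peaks, the next largest class, rose more often and fell less often in these counts. With TMM factors, of other intergenic peaks 29.9% rose and 43.0% fell, against 44.4% and 28.3% of 89751 gene body peaks under the same limits of chromosome and width. By counted reads both classes leaned higher, with 53.2% of other intergenic peaks higher and 29.5% lower, against 68.3% and 16.1% of gene body peaks. Gene desert peaks had 15.9% higher and 67.2% lower of 3125 with TMM factors. The first pass held 37.9% of other intergenic peaks, 23.9% of gene body peaks and 64.4% of gene desert peaks. Within the second pass, 46.9% of other intergenic peaks rose, against 57.0% of gene body and 43.3% of gene desert peaks. The ratio of reads in second-pass other intergenic peaks to reads in second-pass gene body peaks was 0.860, 0.860 and 0.862 in the vitamin C libraries and 0.917, 0.920 and 0.918 in controls. The libraries did not overlap (0.861 ± 0.00088 with vitamin C and 0.919 ± 0.0022 in controls, SD, n = 2 each). Input gave 0.874 ± 0.0013 with vitamin C and 0.875 ± 0.0014 in controls (SD, n = 3 each). In the first pass the ratio was 1.47 ± 0.0187 with vitamin C and 1.64 ± 0.0275 in controls (SD, n = 2 each).

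The 6 peaks of smallest p that rose all lay upstream of the nearest listed start and in the second pass. Positions are as the list has them, on a genome build that the sources used here do not name. A peak at chr12:1222458-1224607, 27.9 kb upstream of Stard13, a GTPase-activating protein, had 19.4, 20.6 and 19.5 CPM with vitamin C, against 8.69, 8.14 and 8.99 CPM in controls. The groups were far apart, and the log2 change was 1.22 ± 0.07 (SE; edgeR with TMM factors, adjusted p = 2.78e-19). The next listed peak, chr12:1225699-1228301, had 12.96, 13.7 and 13.8 CPM with vitamin C and 6.24, 5.20 and 4.86 CPM in controls (1.34 ± 0.08). Input held 78 to 116 reads per library at the first of these peaks with vitamin C and 89 to 128 in controls.

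A peak at chr5:170718759-170720742, 40.4 kb upstream of Ajap1, an adherens junction protein, had 15.4, 15.2 and 14.5 CPM with vitamin C, against 6.17, 6.06 and 6.67 CPM in controls (1.26 ± 0.08). One at chr2:39123849-39125763, 117 kb upstream of Zswim6, had 13.4, 13.6 and 13.3 CPM with vitamin C and 5.41, 5.54 and 6.12 CPM in controls (1.24 ± 0.08). Peaks upstream of Gramd3 on chromosome 18 (1.21 ± 0.08) and of a U6 small nuclear RNA on chromosome 16 (1.17 ± 0.08) complete the 6. RNA of the named genes rose as well in edgeR: Stard13 by 0.86 ± 0.08, Ajap1 by 0.98 ± 0.06, Zswim6 by 0.45 ± 0.06 and Gramd3 by 0.30 ± 0.07 on the log2 scale, at adjusted p of 7.16e-05, 5.72e-06, 0.000365 and 0.00814.

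Other called peaks that rose were the leading ones of their distance or width range. Nearest to a start was one 3.48 kb upstream of Pcdh1, a protocadherin, with 22.3, 23.5 and 21.6 CPM with vitamin C against 12.3, 12.0 and 11.6 CPM in controls (0.93 ± 0.06). Farthest was one 633 kb downstream of the start of Mitf, a transcription factor of pigment and other neural crest cells (0.85 ± 0.08). The narrow peak 218 kb upstream of Enox1 had 2.20, 2.26 and 2.78 CPM with vitamin C and 0.451, 0.606 and 0.581 CPM in controls, a log2 change of 2.15 ± 0.21. At Pmepa1, a membrane protein that restrains TGF-beta signalling, a peak 117 kb upstream had 7.15, 8.21 and 7.498 CPM with vitamin C and 3.27, 2.64 and 2.87 CPM in controls (1.401 ± 0.11), and its RNA rose by 1.01 ± 0.10 (edgeR, adjusted p = 8.06e-05).

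The 6 peaks of smallest p that fell changed by -1.89 to -3.61 on the log2 scale. All of them stood in the first pass. The one of smallest p, chr1:32021560-32022851, 29.2 kb downstream of the start of a 5S ribosomal RNA gene, had 4.42, 4.60 and 4.09 CPM with vitamin C, against 19.8, 20.4 and 20.2 CPM in controls. Its log2 change was -2.19 ± 0.07 (edgeR with TMM factors, adjusted p = 2.91e-26). At chr1:131247761-131248536, vitamin C libraries had 0.723, 0.622 and 0.949 CPM and controls 8.99, 9.40 and 9.94 CPM (-3.61 ± 0.13), with an enrichment over input of 0.693-fold with vitamin C and 6.81-fold in controls. That peak was thus below its input level after treatment. Only 1 of the 6, 132 kb upstream of Ankrd50, had a protein coding gene nearest (-2.03 ± 0.08), and its RNA was not called (-0.12 ± 0.06).

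Among the leading peaks of their distance or width range, 2 had changes past -4 on the log2 scale. The peak chr1:46759660-46760104 had 0.306, 0.323 and 0.316 CPM with vitamin C, against 6.84, 5.02 and 6.33 CPM in controls, a log2 change of -4.23 ± 0.19, and input held 18 to 21 reads per library with vitamin C and 8 to 19 in controls. A peak at chr2:12851755-12852321, 335 kb downstream of the start of Tmem161b, had 0.167, 0.473 and 0.487 CPM with vitamin C and 6.69, 5.76 and 6.79 CPM in controls (-4.04 ± 0.18). In both, vitamin C libraries were below their input level, with enrichment of 0.676-fold and 0.584-fold. The 10th percentile of all first-pass peaks was -1.33.

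The 5 peaks of highest read density were not among those of largest change. They lay near Tm4sf1, LOC102553190, Slc46a3, Trerf1 and Smg9, and 4 of them changed by -0.86 to -1.002 on the log2 scale. The peak 5.06 kb upstream of Smg9 had 18.8, 19.8 and 18.6 CPM with vitamin C and 20.04, 21.3 and 21.4 CPM in controls, which did not pass with TMM factors (-0.12 ± 0.06; edgeR, adjusted p = 0.0656) and rose by counted reads (0.34). With TMM factors it passed as lower with the replicate number as a block (-0.13) and with all 3 libraries apart (-0.13). Input was high at the first 4 of these peaks, with enrichment of 1.73-fold to 3.52-fold with vitamin C and 2.45-fold to 4.86-fold in controls.

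Second-pass peaks came in groups around single genes. Of 707 genes that were nearest to at least 20 such peaks, the share of peaks that rose had a median of 48.1% (10th to 90th percentile 33.3% to 66.7%). The genes named here were chosen after these values were seen. Around Zswim6, 44 of 50 second-pass peaks rose and 0 fell, between 8.52 and 151 kb from its start, with a median log2 change of 0.89. Of its 6 first-pass peaks 2 rose and 3 fell. Around Stard13, 27 of 33 rose and 5 fell, and around Trio, a guanine nucleotide exchange factor, 23 of 25 rose and 1 fell, with RNA of Trio not called (0.15 ± 0.07). Around Gng2, a G protein subunit, 18 of 22 rose and 1 fell, while its RNA fell by 0.39 ± 0.07 (edgeR, adjusted p = 0.00378). Around Bmp3, which encodes a bone morphogenetic protein, 32 of 40 rose and 1 fell while all but 1 of its 7 first-pass peaks fell, and its RNA rose by 1.23 ± 0.09 (edgeR, adjusted p = 2.28e-05). At the other end stood Hs3st1, a heparan sulfate sulfotransferase, with 3 of 20 higher and 5 lower, and its RNA fell by 2.78 ± 0.11 on the log2 scale (edgeR, adjusted p = 1.67e-06). Around Rad21, a cohesin subunit, 4 of 20 rose and 7 fell, with RNA not called (0.01 ± 0.06). By counted reads 48 of 50 peaks rose around Zswim6, 12 of 20 around Hs3st1, where 0 fell, and 13 of 20 around Rad21, where 0 fell.

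Peaks next to Schwann cell genes were set beside all other intergenic peaks. Of a list of 30 regulators, myelin genes and signals of Schwann cells, 22 genes were nearest to 284 other intergenic peaks, of which 128 rose (45.1%, against 29.9% of all other intergenic peaks) and 71 fell (25%, against 43.0%), with a median log2 change of 0.17 (counted reads: 196 and 35, median 0.60), against -0.08 (counted reads: 0.36) for all other intergenic peaks. Of these peaks 55 stood in the first pass, where 4 rose and 44 fell, and 229 in the second, where 124 rose (54.1%, against 46.9% of all second-pass peaks) and 27 fell (11.8%, against 14.7%). Fgf5 alone held 46 of the second-pass peaks, of which 35 rose and 0 fell, so the share of the list leans on 1 gene. Of the class as a whole, 37.9% stood in the first pass.

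Among transcription factors of the lineage, Egr2, the regulator needed for myelination, had 8 such peaks, all of the second pass, of which 6 rose and 1 fell. The one of smallest p, 7.72 kb downstream of its start, had 11.5, 11.6 and 10.9 CPM with vitamin C and 7.14, 8.01 and 7.58 CPM in controls (0.59 ± 0.08; edgeR, adjusted p = 4.47e-09), and Egr2 RNA rose by 1.69 ± 0.16 (edgeR, adjusted p = 7.57e-05). Jun, a driver of the repair state after nerve injury, had 9 peaks with 5 higher and 3 lower, and the leading one had 4.81, 4.85 and 5.79 CPM with vitamin C and 2.52, 2.43 and 2.26 CPM in controls (1.12 ± 0.12). Near Id4, an inhibitor of helix-loop-helix factors, 16 of 26 peaks rose and 4 fell, and the leading one had 14.1, 14.7 and 12.9 CPM with vitamin C and 6.35, 6.496 and 7.86 CPM in controls (1.01 ± 0.08).

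Some factors had their leading peak among those that fell. Near Sox10, the factor that specifies Schwann cells, 1 of 2 peaks fell, with 1.22, 1.84 and 1.46 CPM with vitamin C and 4.10, 4.63 and 4.07 CPM in controls (-1.46 ± 0.15), while its RNA was not called (0.12 ± 0.05). Pou3f1, a factor of the promyelinating stage, had 1 higher and 3 lower of 7 (counted reads: 4 and 2), and its RNA fell by 0.81 ± 0.08 (edgeR, adjusted p = 0.00012). Near Egr1, an early growth response factor related to Egr2, 0 of 7 peaks rose and 4 fell (counted reads: 3 and 3), while Egr1 RNA rose by 2.53 ± 0.16 (edgeR, adjusted p = 9.37e-06).

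Myelin genes had few such peaks. The single peak of Mbp, myelin basic protein, had 5.70, 5.60 and 5.01 CPM with vitamin C and 4.32, 3.68 and 4.25 CPM in controls (0.42 ± 0.11), and Mbp RNA rose by 0.77 ± 0.05. That of Prx, which encodes periaxin, fell with TMM factors (-0.41 ± 0.09) and was not called by counted reads (0.043). Of 8 peaks near Pmp22, 4 rose and 2 fell.

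Among signals, Fgf5, a fibroblast growth factor, was nearest to 53 other intergenic peaks, of which 37 rose and 5 fell with a median of 0.57; all 5 were among its 7 first-pass peaks. Its leading peak, 32.4 kb downstream of the start, had 9.15, 9.08 and 8.71 CPM with vitamin C and 3.84, 4.81 and 3.82 CPM in controls (1.13 ± 0.10), and Fgf5 RNA rose by 1.12 ± 0.06 (edgeR, adjusted p = 5.32e-06). Gdnf, a glial neurotrophic factor, had 6 higher and 7 lower of 20 (counted reads: 12 and 6), and all 3 of its first-pass peaks fell. Its leading peak was wide and strong, with 14.0, 14.97 and 14.6 CPM with vitamin C and 31.4, 33.9 and 32.7 CPM in controls (-1.15 ± 0.06), while Gdnf RNA rose by 1.46 ± 0.07. Near Adgrg6, the adhesion receptor that starts Schwann cell myelination, 4 of 10 peaks rose and 2 fell (counted reads: 5 and 1). Its leading peak, 42.3 kb upstream, belonged to the second pass and fell, with 2.64, 2.64 and 2.87 CPM with vitamin C and 9.32, 9.57 and 9.60 CPM in controls (-1.79 ± 0.10).

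**Figure D5:**
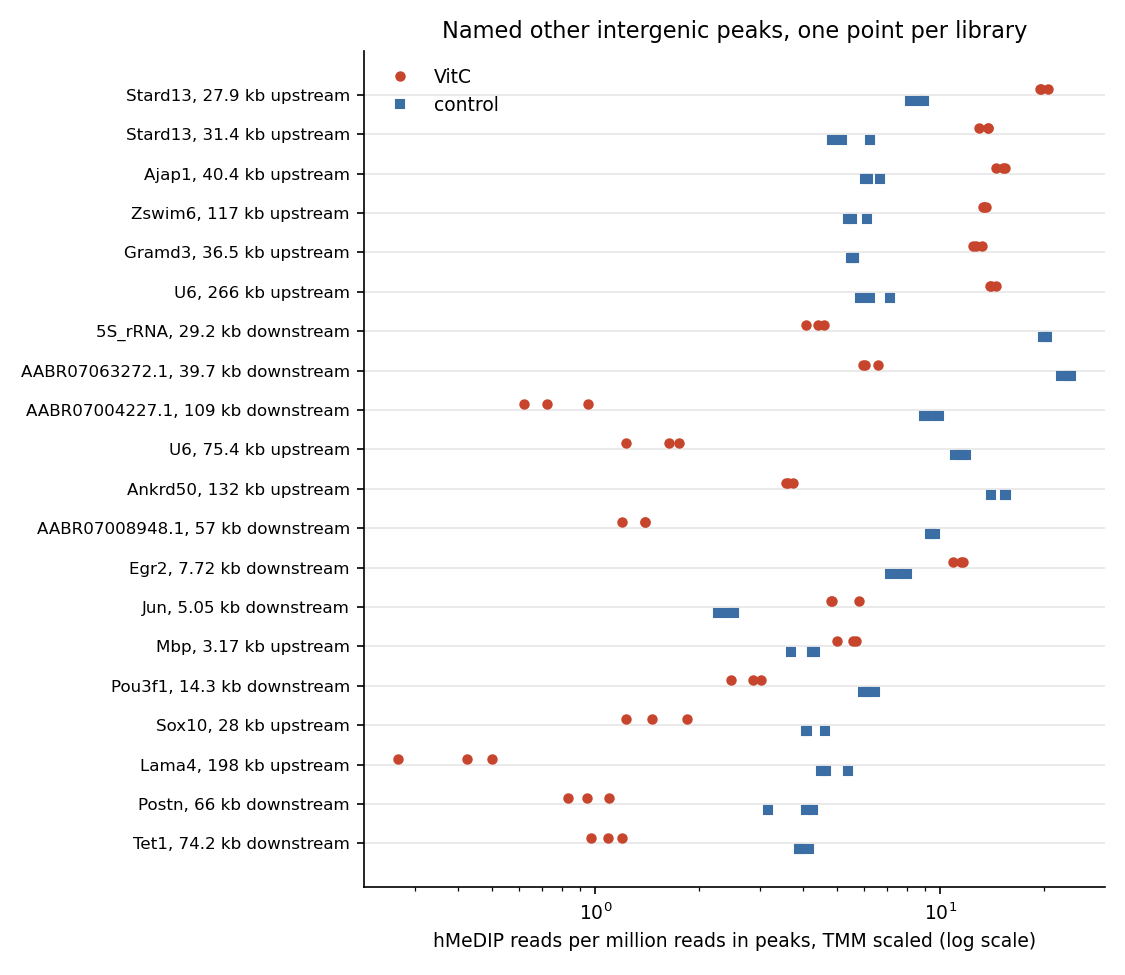
hMeDIP level of 20 named other intergenic peaks in CPM of the reads in peaks, TMM scaled, on a log axis, with 1 point per library (red circles vitamin C, blue squares control), labelled by the nearest listed gene and the distance to its start. The upper 6 rose, the next 6 fell, and the others are leading peaks of listed genes, in all of which the groups do not overlap.

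Peaks next to extracellular matrix genes were set beside the class in the same way. Of 27 matrix, collagen and laminin genes, 22 were nearest to 284 peaks, of which 102 rose (35.9%, against 29.9% of all other intergenic peaks) and 86 fell (30.3%, against 43.0%), with a median of 0.07 (counted reads: 191 and 49, median 0.50). In the first pass 3 of 77 rose and 63 fell (81.8%, against 89.2% of all first-pass peaks), and in the second 99 of 207 rose (47.8%, against 46.9%) and 23 fell (11.1%, against 14.7%). Sparc, a matrix glycoprotein, had 6 of 8 higher and 1 lower, and Col4a1, a basement membrane collagen, 12 of 23 higher and 4 lower. Their leading peaks, of the first pass, were called lower, at -0.55 ± 0.06 near Sparc, which lost the call by counted reads, and -1.13 ± 0.11 near Col4a1. Near Lama2, the laminin chain of the Schwann cell basal lamina, 3 of 9 rose and 0 fell, and its leading peak changed by 0.95 ± 0.13. RNA of these genes rose by 0.81 ± 0.05 (Sparc), 1.05 ± 0.06 (Col4a1) and 1.34 ± 0.12 (Lama2), called by edgeR.

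Of the 17 listed matrix genes with peaks whose RNA rose, 10 had more peaks that rose than fell with TMM factors and 6 more that fell (counted reads: 15 and 2). Col3a1, Eln and Postn were among the 6, which turned by counted reads for Col3a1 (9 higher, 5 lower) and Postn (12 and 6) but not for Eln (3 and 5). Col3a1, a fibrillar collagen, had 2 of 19 higher and 10 lower, and Eln, which encodes elastin, 0 of 9 higher and 6 lower, with RNA up by 1.90 ± 0.11 and 2.25 ± 0.38. Of the 10 and 6 that fell, 8 and 6 stood in the first pass. Near Postn, which encodes periostin, 7 of 21 rose and 8 fell, of which 7 were among its 8 first-pass peaks. Its leading peak had 0.834, 0.945 and 1.10 CPM with vitamin C and 4.29, 3.16 and 4.07 CPM in controls (-1.98 ± 0.17), while Postn RNA rose by 2.95 ± 0.19. Leading peaks could go against the majority of their gene. Near Lama4, 14 of 31 peaks rose and 10 fell (counted reads: 21 and 5), and near Col4a2, 7 of 14 rose and 2 fell (counted reads: 11 and 1). A peak 198 kb upstream of Lama4 had 0.501, 0.423 and 0.268 CPM with vitamin C and 4.66, 4.50 and 5.41 CPM in controls (-3.61 ± 0.18), and one 12.3 kb upstream of Col4a2 changed by -2.71 ± 0.18. The leading peaks near Col5a2, a fibrillar collagen, and near Itga6, a laminin receptor subunit, stood in the second pass and fell. All peaks together, 1 of 7 rose and 3 fell near Col5a2 (counted reads: 4 and 3), and 5 of 12 rose and 2 fell near Itga6 (counted reads: 10 and 1). That near Col5a2 had 3.23, 3.58 and 2.78 CPM with vitamin C and 8.53, 8.05 and 8.07 CPM in controls (-1.34 ± 0.10), and that near Itga6 changed by -1.34 ± 0.11. The leading peak near Col5a1, the partner chain of Col5a2, rose, with 4.48, 5.37 and 4.33 CPM with vitamin C and 2.41, 1.78 and 2.63 CPM in controls (1.07 ± 0.14). The single peak of Fbn2 was not called with TMM factors (0.06 ± 0.15) and rose by counted reads (0.47).

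Genes of the oxidation of methylated cytosine and of vitamin C uptake had few peaks. Of 13 genes, 8 were nearest to 41 peaks, of which 13 rose (31.7%, against 29.9% of all other intergenic peaks) and 15 fell (36.6%, against 43.0%), with a median of 0.04 (counted reads: 26 and 10, median 0.46). In the first pass 0 of 15 rose and 13 fell, and in the second 13 of 26 rose and 2 fell, a share of 50% against 46.9% of all second-pass peaks. The single peak of Tet1, 74.2 kb downstream of its start, had 1.08, 1.19 and 0.974 CPM with vitamin C and 3.91, 3.90 and 4.16 CPM in controls (-1.86 ± 0.16). Tet2 and Tet3, the other TET enzymes, had 0 higher and 1 lower of 3, and 1 higher and 2 lower of 4 (counted reads: 2 and 0, and 2 and 1). Near Dnmt3a, a DNA methyltransferase, 8 of 18 rose and 5 fell, and the single peak of Dnmt1, the maintenance methyltransferase, was not called with TMM factors (0.08 ± 0.09) and rose by counted reads (0.53). Slc2a1, a glucose transporter that takes up oxidised vitamin C, had 3 higher and 4 lower of 10 (counted reads: 6 and 4). The single peak of Idh1, an isocitrate dehydrogenase that makes the TET cosubstrate 2-oxoglutarate, rose (0.80 ± 0.18).

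The calls were also set beside the RNA of the nearest gene. Of all 12925 genes tested in RNA, 19.1% rose and 21% fell (edgeR, adjusted p of 0.05). Of the 11279 genes nearest to other intergenic peaks, 4943 were not tested in RNA. Of the 6336 tested, 1649 rose (26.0%) and 1221 fell (19.3%). In the second pass, 50.4% of 11314 peaks rose next to genes with higher RNA, against 44.0% of 5725 next to genes with lower RNA and 47.6% of 16321 next to genes not called. The shares that fell were 13.4%, 16.5% and 14.1% in the same order. Within 30 kb of the start the shares that rose were 50.8% and 43.4%. In the first pass 86.5% fell next to genes with higher RNA and 87.1% next to genes with lower RNA.

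For genes whose RNA changed by over 2 on the log2 scale, with the peak within 100 kb, 48.3% of 484 second-pass peaks of 83 genes with higher RNA rose and 10.7% fell. For lower RNA, 32.8% of 235 peaks of 54 genes rose and 20.9% fell. Of all second-pass other intergenic peaks, at any distance, 46.9% rose and 14.7% fell, so the share that rose next to higher RNA was near that of the whole pass. Among first-pass peaks 87.5% of 232 fell next to genes with higher RNA and 84.0% of 125 next to genes with lower RNA, against 89.2% of all first-pass peaks. A ratio per library took all genes called in RNA, whatever the size of the change, and peaks within 100 kb of the start. Reads in second-pass peaks next to genes with higher RNA, over those next to genes with lower RNA, came to 1.92, 1.92 and 1.93 in the vitamin C libraries and 1.82, 1.82 and 1.82 in controls. The groups did not overlap, and averaged 1.92 ± 0.00018 with vitamin C and 1.82 ± 0.0022 in controls (SD, n = 2 each). Input gave 1.89 ± 0.0109 with vitamin C and 1.89 ± 0.0059 in controls (SD, n = 3 each). The same ratio in the first pass was 1.66, 1.67 and 1.68 in the vitamin C libraries and 1.61, 1.61 and 1.62 in controls. With replicates 1 and 3 summed, the vitamin C SD of the second pass is smaller than the spread over 3 libraries. RNA and DNA came from the same groups of samples, and peaks of 1 gene share their neighbour, so peaks were not counted as replicates.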

How the data were processed

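RNA, hMeDIP DNA and input DNA of 3 vitamin C and 3 control samples were used, 18 libraries. The deposited files hold the authors' raw read counts, per gene for RNA and per peak for hMeDIP and input, with a peak list giving positions, genes and region classes. CASAVA 1.4, Trim Galore, HTSeq, BWA and STAR are named in the submitters' processing notes. Not given in the sources used here are the step each did, the genome build, the annotation, the peak caller and how peaks were merged. No sequence of these regions was used here.

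Counts were tested over all listed peaks with edgeR 4.0.16 (R 4.3.3), quasi-likelihood F test, filterByExpr, TMM factors or all counted reads as library size, and Benjamini-Hochberg adjustment at 0.05, hMeDIP, input and RNA apart. Enrichment over input was tested as the interaction of assay and treatment with a term per sample. Log2 changes are vitamin C over control with the SE of the fit. CPM are of the reads in peaks or genes, scaled by TMM factors, and levels per kilobase are CPM of all counted reads. The scripts were tested on simulated counts. hMeDIP replicates 1 and 3 were summed by a chi-square check over peaks with at least 20 reads in a pair. Entries naming no gene or peak stayed out of tests. Single library values were compared with exact permutation tests, two-sided. Distances run from a peak's midpoint to the nearest start among listed transcripts, and the list names no gene for these peaks. Python 3.11.15 (scipy 1.17.1, pandas 2.3.3, numpy 2.4.6, matplotlib 3.10.9) and DESeq2 1.42.0 were also used.

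Members, gene lists and tests were chosen with earlier results of these data known, and the lists are no independent evidence. Named peaks were the 6 of smallest p in each direction among called, non-overlapping peaks of 1 direction in both scalings, the leading ones of each distance and width range, the 5 of highest read density, and the one of smallest p per listed gene, some of which are not reported here. Choosing the smallest p favours large changes. The no-block fit is the one reported, since same-numbered replicates did not deviate together (correlations of -0.04, -0.23 and -0.12 across peaks). Alternatives were other size factors, DESeq2, no filter, libraries apart, a replicate block, leaving out each replicate, each pass of the list, other width limits and X.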

Additional observations from a re-analysis of the deposited data

How the results depend on the processing

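With TMM factors 30239 other intergenic peaks rose and 43416 fell. By all counted reads 53698 rose and the median log2 change was 0.36 in place of -0.08, by the construction of that scaling. With library size alone the median was -0.016, and with DESeq2 size factors or its Wald test -0.11, the Wald test with 14882 peaks higher. Within the first pass of the list 810 rose with a median of -1.02, and within the second pass 9245 fell with a median of 0.24; the cause was not tested. Enrichment over input by counted reads rose at 39576 peaks and fell at 19929. With the replicate number as a block 29836 rose and 44244 fell, and neither of these counts moved by over 1.5 times. Leaving out each replicate in turn gave 25836 to 29746 higher and 40887 to 43932 lower. Within the passes, tried after seeing the data, the difference in the share of all counted reads (vitamin C minus control) was -1.14 points in the first and 4.27 in the second, in place of 3.13, and the ratio by distance (vitamin C over control) was 0.859 and 0.994, in place of 0.875. Under the other alternatives run for them, the share, that ratio and the 0 calls in input kept their direction. Of 76 named peaks, 2 turned by counted reads, those near Smg9 (0.34) and Prx (0.043), 4 lost the call there (near Gldn, Sparc, Tnc and Tet2), and Shh lost it by DESeq2's Wald test. Those near Fbn2 (0.47) and Dnmt1 (0.53) gained a call by counted reads, and that near Smg9 gained one as lower with DESeq2 size factors (-0.15), libraries apart (-0.13) and the replicate block (-0.13). With n = 2 per group no library value could pass an exact test.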

Other observations

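Side of the nearest start and kind of nearest gene made little difference among other intergenic peaks. In the second pass, 47.2% of peaks upstream and 46.6% downstream of the nearest listed start rose, and in the first pass 88.9% upstream and 89.8% downstream fell. Where the nearest gene was protein coding, 46.7% of second-pass peaks rose, where it was a lincRNA 45.8%, and where it was of another kind, mostly small RNAs and pseudogenes, 49.8%.

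Some peaks were called in opposite directions by the scalings. In the first pass 29 peaks, and in the second 141, fell with TMM factors and rose by counted reads; they were wide, with median widths of 1826 and 1773 bases. Second-pass peaks that fell in both scalings numbered 1457, with a median enrichment over input of 4.23-fold with vitamin C and 5.91-fold in controls. The peak near Adgrg6 is one of them.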
